A study of Mus musculus with 15 samples.

Results

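The genes of the cytosolic ribosome's proteins were followed across RNA-seq libraries of sorted mouse myeloid progenitors. Members were chosen by symbol: names starting with Rps or Rpl and a digit, without names holding -ps, without the Rps6k kinases and Rps27l, plus Rpsa, Rplp0, Rplp1 and Rplp2. The rule found 85 of the 23337 gene symbols. Of these, 77 are the main genes of ribosomal proteins (31 of the small subunit, 43 of the large subunit and 3 of the stalk), 7 are paralogs of a main gene, and Rps19bp1 encodes a binding partner of Rps19 that is not a ribosomal protein. The rule leaves out Fau, which encodes a ribosomal protein fused to a ubiquitin-like protein.

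The libraries came from bone marrow of mice, either wild type (WT) or with Trappc1 knocked out (KO), with no treatment named. Common myeloid progenitors (CMP) were sorted as lineage-negative, Sca1-negative, CD117-positive and CD34-positive cells with low CD16/32, and granulocyte-monocyte progenitors (GMP) as the same with high CD16/32. Each of WT CMP, KO CMP and WT GMP had 4 libraries, and KO GMP had 3, numbered 1, 3 and 4. The sources used here do not give the allele, any Cre driver, strain, age or sex. They also do not say whether each library is a different mouse, so a p-value here reflects library-to-library spread, part of which may be technical.

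A cytosolic ribosome has a small subunit, which holds the mRNA and the decoding site, and a large subunit, which joins the amino acids and carries a flexible stalk that recruits translation factors. Most of its proteins are needed in equal numbers, and their mRNAs are among the most abundant in dividing cells. Many of these mRNAs start with a C followed by a run of pyrimidines, the 5′ terminal oligopyrimidine tract through which mTOR and Larp1 control their translation. In bone marrow, loss of a single copy of some of these genes causes Diamond-Blackfan anaemia in people.

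Trappc1, the deleted gene and a core subunit of the TRAPP vesicle-tethering complexes, stood below the WT range of its cell type in all 7 KO libraries. Its level in CPM (reads as a rate per fixed library total, scaled by edgeR's TMM factors) was 5.56, 3.84, 11.7 and 13.4 in KO CMP 1 to 4 against 18.4 to 26.2 in WT CMP, and 6.09, 24.1 and 25.2 in KO GMP 1, 3 and 4 against 30.9 to 41.3 in WT GMP. The KO libraries numbered 1 and 2 stood apart. Xist, the X-inactivation RNA of female cells, measured 109, 204 and 123 CPM in KO CMP 1, KO CMP 2 and KO GMP 1, and at most 2.17 CPM in the other 12 libraries. The levels of 16 genes that define these progenitors, such as Mpo, Elane and Kit, were summed. The sum was 6713 and 7260 CPM in KO CMP 1 and 2 against 14256 to 26649 in the other 6 CMP libraries. In KO GMP 1 it was 23775 CPM against 41585 to 46514 in the other 6 GMP libraries. Not all of the 16 were lower in these libraries. Kit measured 419 and 409 CPM in KO CMP 1 and 2, against 331 to 390 in the other CMP libraries. It measured 419 CPM in KO GMP 1, against 258 to 313 in the other GMP libraries. All 16 were above 0 in every library. Results are also given for numbers 1-2 and 3-4 apart. This division was taken from earlier results of these data, in which the WT libraries part this way. The labels do not link numbers to a batch.

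Among the main genes, 4 had a second gene in the files with at least 99% of aligned coding bases alike and a mean of at least 5 CPM, so the values of each pair depend on how reads common to both were assigned. Rplp2 had such a copy below that level, at 4.76 CPM, and the copies of Rpl21 (80.1 CPM) and Rpl41 (45.2 CPM) were less alike. The sequences below show how little separates 3 of the pairs. They are coding bases from GENCODE M21 on GRCm38, numbered from the A of the start codon, with the differing base in capitals. Rpl26 (chromosome 11, 68901583 to 68906989, plus strand), a large subunit protein next to the nascent chain exit, differs from the processed pseudogene Gm15772 (chromosome 5, 3236431 to 3236868, plus strand) by 2 of 438 bases, C177T and T288C, where the main gene's base comes first. Bases 157 to 216 read:
Rpl26: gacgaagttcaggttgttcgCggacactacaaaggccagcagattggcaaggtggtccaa
Gm15772: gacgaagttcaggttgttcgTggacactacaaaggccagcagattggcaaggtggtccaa
Rpl34 (chromosome 3, 130726831 to 130730398, minus strand) differs from Rpl34-ps1 (chromosome 6, 71124610 to 71124963, plus strand) by T132C and C318G over 354 bases. Bases 112 to 171 read:
Rpl34: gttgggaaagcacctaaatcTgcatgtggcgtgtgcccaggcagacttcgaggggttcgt
Rpl34-ps1: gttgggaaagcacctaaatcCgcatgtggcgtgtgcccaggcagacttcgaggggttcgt
Rpl30 (chromosome 15, 34440505 to 34443640, minus strand) is paired in the same way with Gm12191 (chromosome 11, 49678710 to 49679057, minus strand).
Rps27 (chromosome 3, 90212522 to 90213651, minus strand), a zinc-binding protein of the small subunit, and Gm9846, named Rps27rt in GENCODE M21 (chromosome 9, 114982366 to 114982739, minus strand), have the same 255 coding bases, of which the first 60 read:
Rps27: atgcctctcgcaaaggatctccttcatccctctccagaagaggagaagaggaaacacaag

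For the pairs of Rpl26 and Rpl34 the division of counts was much alike in all 15 libraries. Rpl26 held only 0.59 to 1.37 CPM while Gm15772 held 827 to 1576 CPM, so 0.0521% to 0.116% of the pair's counts were on the main gene. Rpl34 held 32.5 to 53.7 CPM and Rpl34-ps1 536 to 896 CPM. In the pair of Rpl30 the main gene held most of the counts, between 65.5% and 91.2%, and the division moved between libraries. The main gene held 69.4% and 65.5% in WT GMP 1 and 2, and 87.7% and 91.2% in WT GMP 3 and 4. In KO GMP 1, 3 and 4 it held 72.5%, 89.0% and 90.9%. In CMP the number sets overlapped, with 84.2% in KO CMP 2 and 75.4% in KO CMP 4. Levels and fold changes of Rpl26 and Rpl34 as deposited thus describe a small part of what the pair received, and reads of the main gene and the copy cannot be told apart here.

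Rps27 changed places with its copy between libraries of different number. In the 4 libraries numbered 1, Rps27 measured 523 CPM in WT CMP, 507 in KO CMP, 640 in WT GMP and 440 in KO GMP, and Gm9846 measured 18.6 to 32.9 CPM. In the other 11 libraries Rps27 measured 5.87 to 16.1 CPM and Gm9846 492 to 758 CPM. The ranges of both genes lie far apart, while the summed level of the pair overlapped, at 459 to 666 CPM in number 1 and 502 to 769 CPM in numbers 2 to 4. Among 10124 genes with a mean of at least 5 CPM, these 2 were the only ones whose number 1 libraries all stood at least 8-fold above or below all others. For numbers 2, 3 and 4 no gene did so. Per group, the pair summed to 627 ± 76.7 CPM in WT CMP and 602 ± 106 CPM in KO CMP (SD, n = 4 each). In GMP it summed to 650 ± 89.1 CPM in WT (n = 4) and 631 ± 154 CPM in KO (n = 3). These overlap.

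**Figure D1:**
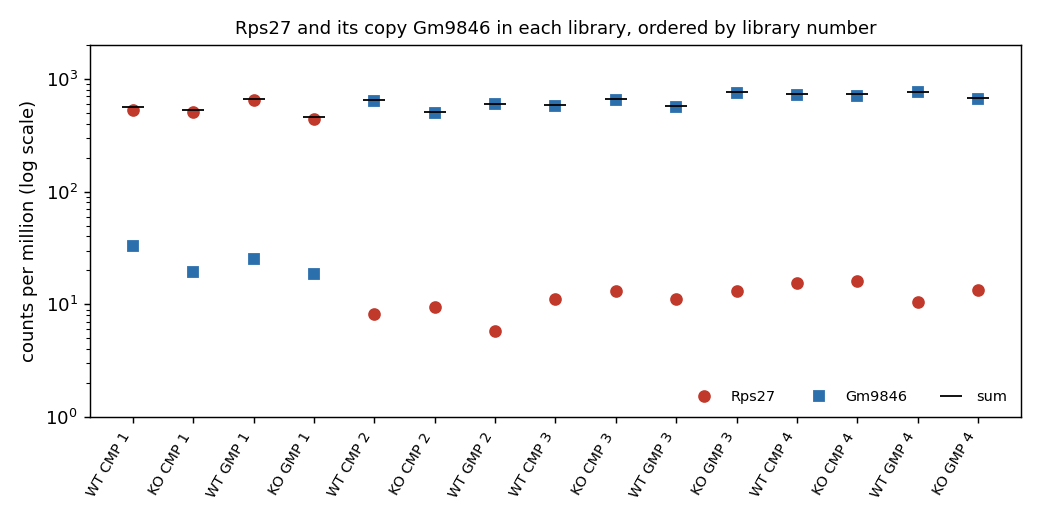
Level of Rps27 (red circles), its copy Gm9846 (blue squares) and their sum (black bars) in CPM on a log axis, for each of the 15 libraries ordered by library number. The 4 libraries numbered 1 have Rps27 at 440 to 640 CPM and the copy at 18.6 to 32.9, the other 11 the reverse, and the sum stays between 459 and 769 CPM.

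Compared per kilobase of transcript, most main genes lay within a narrow band of mean levels, and 3 of the 4 with such a copy were the lowest but for Rps20. Over all libraries Rps12, a small subunit protein, was highest at 4860 CPM per kb, followed by the stalk gene Rplp1 at 3727, and by Rps24, at 3659, and Rpl41, at 3521. Rpl26 (1.76 CPM per kb) and Rpl34 (89.4) were lowest, then Rps20 (341, on an annotated transcript of 3706 bases) and Rps27 (440). Not per length, the highest mean levels were those of Rplp0 (3861 CPM), the base of the stalk, Rpsa (3786), the laminin receptor protein of the small subunit, Rpl4 (3444), Rps6 (2959), the S6 kinase substrate, and Rps2 (2726). Each was high in every library: Rplp0 ranged from 2941 CPM in KO CMP 2 to 4787 in WT GMP 1, and Rpsa from 2784 in KO CMP 2 to 4512 in WT GMP 1. The coefficient of variation of a main gene over the 15 libraries had a median of 14.9%, from 7.88% for Rpl15 to 160% for Rps27, and 6 of 77 were above 25%, among them Rpl30 (35.0%), Rps29 (34.6%) and Rpl38 (28.3%). Rps19bp1 measured 19.6 to 28.9 CPM, and Fau, at 553 to 1068 CPM, lay at the level of the main genes.

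**Figure D2:**
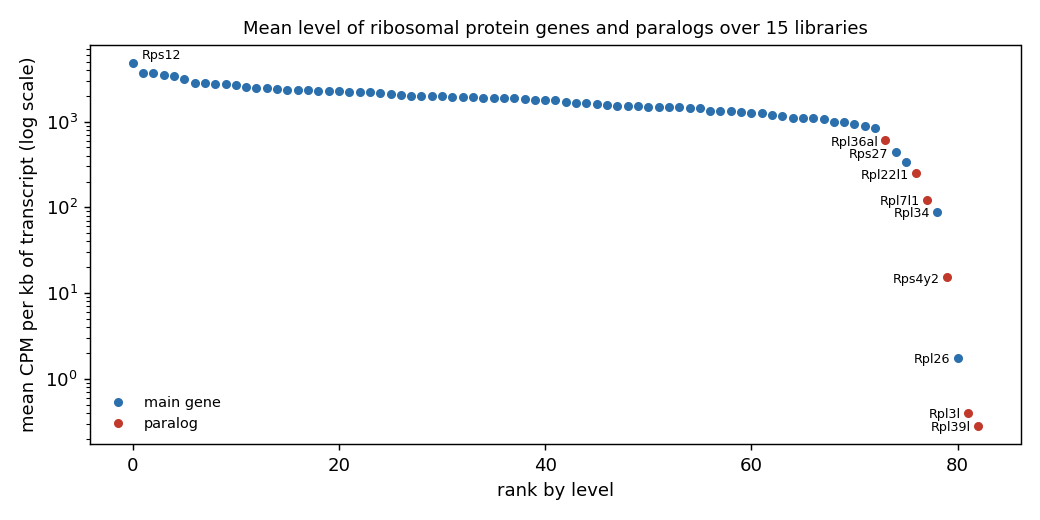
Mean level of each main gene (blue) and paralog (red) over the 15 libraries, in CPM per kilobase of transcript on a log axis, ordered by rank. All but a few main genes lie between about 838 and 4860; Rpl26 and Rpl34, whose pairs have most of their counts on the copy, fall to 1.76 and 89.4, among the paralogs.

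Many of these genes carry a pyrimidine run at their start. The windows below hold 30 bases before and 30 from the annotated start, from RefSeq on GRCm38.p6, read on the gene's strand. They are shown as examples of a long run, for Rps6 and for 4 genes that come up in the comparisons. For Rpl35a only 1 of 3 listed starts is shown. The windows of the other 2 cut the same run and hold 6 of its bases. Capitals mark the pyrimidine run that begins with C.
Rpl35a (chr16:33056452-33056511, plus): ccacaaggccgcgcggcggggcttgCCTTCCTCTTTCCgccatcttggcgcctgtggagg
Rpl35 (chr2:39005102-39005161, minus): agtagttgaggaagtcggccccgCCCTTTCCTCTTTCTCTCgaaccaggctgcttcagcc
Rpl14 (chr9:120571487-120571546, plus): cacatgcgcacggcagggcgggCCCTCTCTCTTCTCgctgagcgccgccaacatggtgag
Rplp2 (chr7:141447621-141447680, plus): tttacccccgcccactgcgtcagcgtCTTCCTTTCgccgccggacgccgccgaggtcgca
Rps6 (chr4:86857338-86857397, minus): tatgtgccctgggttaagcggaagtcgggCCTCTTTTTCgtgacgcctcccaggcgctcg
Of the 57 main genes in the RefSeq promoter table, 31 (54.4%) had a run of at least 8 pyrimidines starting with C in this window, on the transcribed strand, against 17 of 69 mitochondrial ribosomal protein genes (24.6%) and 20.6% of all 27025 genes of the table. CTTCCG, the core of many ETS factor motifs, stood on either strand within 250 bases before to 50 after the start in 40 of 57 main genes (70.2%), in 56.5% of the mitochondrial set and in 18.8% of all genes. Its first letters can overlap the run. Genes with several listed starts were counted once. Other genes named in the comparisons differed in this. Some had a long run, such as Rpl15 (17 bases), Rpl11 (16) and Rpl31 (13). Some lacked one within the window, with a greatest length of 6 bases in Rpl23 and Rps23, 5 in Rpl22, 4 in Rpl7l1 and 3 in Rps28. In Rps23 pyrimidines also reach the window's last base, so a run there may be cut. A match describes these letters and no more.

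As a share of each library, the 85 genes did not separate KO from WT. They took 10.7%, 11.4%, 11.1% and 13.1% of counts in WT CMP 1 to 4 and 11.1%, 9.57%, 12.3% and 13.5% in KO CMP 1 to 4, with means of 11.5% ± 1.05 (SD, n = 4) and 11.6% ± 1.67 (n = 4). In GMP the shares were 11.5%, 10.3%, 10.5% and 11.2% in WT and 9.44%, 10.6% and 11.1% in KO 1, 3 and 4, with means of 10.9% ± 0.567 (n = 4) and 10.4% ± 0.840 (n = 3). The groups overlap in both cell types. The lowest shares were those of KO GMP 1 and KO CMP 2, and the highest those of the 2 CMP libraries numbered 4. The large subunit took 5.91% ± 0.567 in WT CMP and 5.98% ± 0.871 in KO CMP, and the small subunit 4.89% ± 0.445 and 4.88% ± 0.709. In bulk RNA of sorted cells, fewer cells of a type and less of these mRNAs per cell cannot be told apart.

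**Figure D3:**
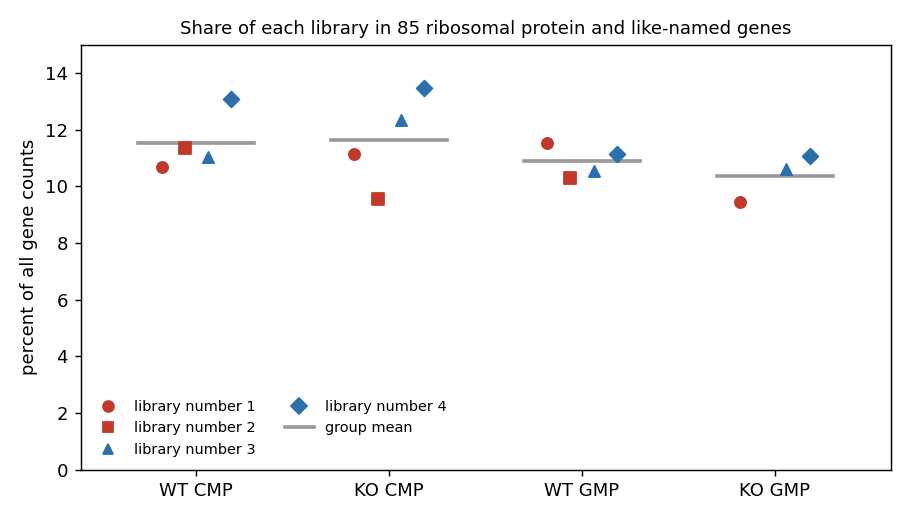
Percent of all gene counts in each library that fell on the 85 genes, by group. Points are libraries, with shape for library number and red for numbers 1-2, blue for numbers 3-4, and grey bars are group means. The groups overlap between 9.44% and 13.5%, and in KO CMP the numbers 1-2 lie below the numbers 3-4.

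Knockout against wild type, the question of the series, gave no member past the threshold in either cell type. In CMP 0 of 84 tested members passed an adjusted p of 0.05 in edgeR's quasi-likelihood test (0% of all 15181 genes did). An unadjusted p under 0.05 was held by 0 members and by 11.6% of all genes, and in DESeq2 0 members passed beside 0.896% of all genes higher and 1.53% lower. The median log2 fold change of the members was -0.0023 and 42 of 84 were positive, beside a median of 0.01 over all genes. All 77 main genes lay within 1.2-fold, but the SE of Rps27 was 1.84, so its value says little. Without Rps27, Rpl26 and Rpl34 all 74 did, with an SE of at most 0.375. Among the smallest p-values were those of Rpl27 (0.16 ± 0.13, SE, adjusted p = 0.705), Rpl34 (0.14 ± 0.15, adjusted p = 0.789) and, on the lower side, Rpl7l1 (-0.10 ± 0.10, adjusted p = 0.792). Without the 3 KO libraries of numbers 1-2, 82 of 84 members were positive with a median of 0.20, and 0 passed. The side of the median depended on single libraries: it was 0.10 without KO CMP 2 (80 positive) and -0.12 without KO CMP 4 (6 positive).

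In GMP 0 of 84 members passed (0% of all genes), 0 had an unadjusted p under 0.05 (6.49% of all genes) and 0 passed in DESeq2 (0.316% of all genes higher, 0.079% lower). The median was -0.09, 16 of 84 were positive, and over all genes the median was 0.01. With library number as a block the median was -0.15, 5 of 84 were positive, 3 had an unadjusted p under 0.05 and 0 passed. Apart from Rpl26, at 0.44 ± 0.32, all main genes again lay within 1.2-fold, from -0.24 (Rps12) upwards. Rps27, at -0.10 ± 1.99, again says little. Without Rps27, Rpl26 and Rpl34 the SE was at most 0.405. Rps3a (-0.22 ± 0.14, adjusted p = 0.882), a small subunit protein near the mRNA exit, and Rplp0 (-0.15 ± 0.12, 0.954) were among those with the smallest p-values on the lower side. Without the 3 KO libraries of numbers 1-2, of which KO GMP 1 is the GMP library, the median was 0.04; without KO GMP 4 it was -0.16 and without WT GMP 4 -0.04. The difference between the KO effects, CMP minus GMP, had a median of 0.08 with 74 of 84 members positive, and 0 members passed in edgeR or DESeq2 (0% of all genes in edgeR, and in DESeq2 0% higher and 0.0198% lower); 0 members had an unadjusted p under 0.05 (2.97% of all genes). With the block its median was 0.13, and it fell below 0 without KO GMP 1 (-0.06) or KO CMP 4 (-0.04).

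**Figure D4:**
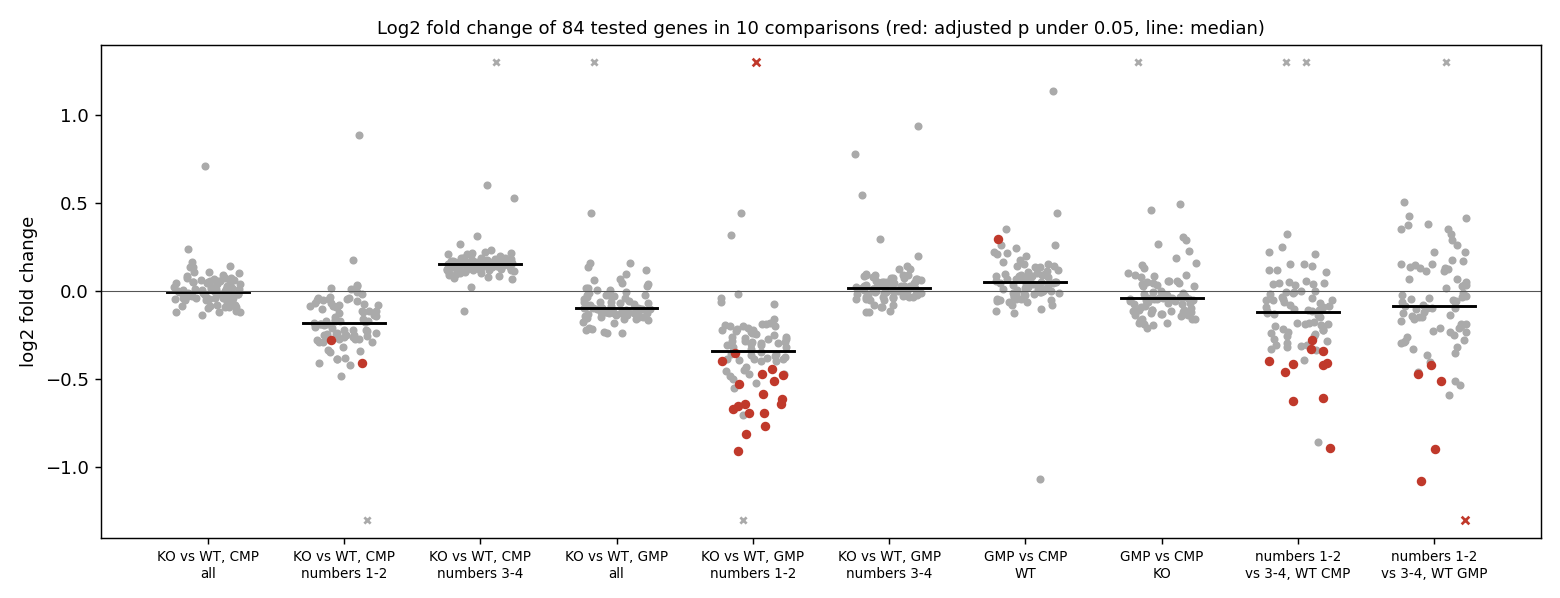
Log2 fold change of each of the 84 tested genes in 10 comparisons. Red marks genes with an adjusted p under 0.05, black lines are medians, and crosses at the edges stand for values beyond 1.3. The medians run from -0.34 (KO against WT in GMP, numbers 1-2) to 0.15 (KO against WT in CMP, numbers 3-4).

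The step from CMP to GMP left most ribosomal protein genes at their level. In WT 1 of 84 members was higher and 0 were lower in GMP, while 25.5% of all genes passed (11.3% higher, 14.2% lower). Rpl7l1, a paralog of Rpl7 found in precursors of the large subunit, was the member that rose, by 0.30 ± 0.10 on the log2 scale (adjusted p = 0.0494): it measured 151, 172, 130 and 147 CPM in WT CMP 1 to 4 and 198, 190, 172 and 177 CPM in WT GMP 1 to 4. The highest WT CMP library (171.9 CPM) lay just below the lowest WT GMP library (172.1 CPM). Rpl36al, at 0.44 ± 0.16, missed the threshold (adjusted p = 0.0596) and passed when library number entered as a block (0.45, adjusted p = 0.0174), which makes 2 members higher. It measured 251 to 330 CPM in WT CMP and 334 to 409 CPM in WT GMP, with no overlap. The member median was 0.05, beside -0.02 over all genes. In KO 0 members passed (21.2% of all genes, 10.7% higher and 10.5% lower), 0 did in DESeq2 (12.1% of all genes higher, 14.1% lower), and 1 had an unadjusted p under 0.05 (33.3% of all genes). Rpl7l1 was at 0.27 ± 0.11 there (adjusted p = 0.106). With number as a block, 1 member was lower, Rpl36 (-0.26, adjusted p = 0.0462), beside 14% of all genes, and with number set as a covariate 0 were. Leaving out KO GMP 1 left Rpl7l1 past the threshold (0.39, adjusted p = 0.0137). In WT, leaving out any 1 of the WT libraries other than WT CMP 2 left 0 members past it.

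Within numbers 1-2, KO CMP had less of 2 member mRNAs, the main gene Rpl35a and the paralog Rpl7l1, and most others lay on the same side. There 2 of 84 members were lower in KO and 0 were higher, where 18.5% of all genes passed (8.23% higher, 10.2% lower). Rpl35a, a large subunit protein on the anaemia list, measured 748 and 733 CPM in WT CMP 1 and 2 and 611 and 505 CPM in KO CMP 1 and 2, and fell by 0.41 ± 0.12 (log2, SE, adjusted p = 0.0306). Rpl7l1 measured 151 and 172 CPM in WT and 138 and 128 CPM in KO (-0.28 ± 0.08, adjusted p = 0.0400). Neither pair of libraries overlapped the other. The member median was -0.18, with 6 of 84 positive, beside 0.01 over all genes, and 14 members (16.7%) had an unadjusted p under 0.05, below the 30.7% of all genes that did. DESeq2 placed 7 members lower (8.33%), beside 10.7% of all genes. Without KO CMP 2 the count was 0, without WT CMP 2 it was 1 and without KO CMP 1 it was 10. The summed level of the defining progenitor genes was lower in the same libraries, as given above. Of the 16 genes 12 were lower past the threshold and 2 were higher. The summed level of 12 stem cell genes was 734 to 787 CPM there against 403 to 478 in the other CMP libraries, and that of 13 stromal genes 309 to 379 against 158 to 237. Their part in the result was not tested. KO CMP 1 and 2 also held the high Xist levels given above, which WT CMP 1 and 2 did not. Genotype and Xist status cannot be told apart in this comparison.

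Within numbers 3-4 the members lay the other way in CMP, and in GMP they showed little shift. In CMP 83 of 84 were positive with a median of 0.15, beside -0.01 over all genes, and 0 passed the threshold (0.00659% of all genes, which is 1 gene), in edgeR or DESeq2 (0.481% of all genes higher and 0.408% lower in DESeq2), while 1 had an unadjusted p under 0.05 (11.4% of all genes). The smallest p-value was that of Rpl34 (0.31 ± 0.12, adjusted p = 0.368), whose pair has most of its counts on the copy. The median depended on single libraries: without WT CMP 3 it was 0.00 and 44 of 84 were positive, without KO CMP 4 it was 0.09, without KO CMP 3 it was 0.23, and without WT CMP 4 it was 0.32 with 42 members at an unadjusted p under 0.05. In GMP the median was 0.02, 53 of 84 were positive and 0 members passed in edgeR (0.0132% of all genes) or DESeq2 (0.0856% higher, 0.191% lower), with 0 at an unadjusted p under 0.05 (5.2% of all genes). That median was -0.04 without WT GMP 3 (20 positive) and -0.02 without KO GMP 4 (38 positive). Without KO GMP 3 it was 0.05, and without WT GMP 4 it was 0.08. Tested directly, the KO effect in CMP differed between the number sets for 0 members (7.64% of all genes passed, 3.05% higher and 4.59% lower), with a median of -0.34 and 22 members (26.2%) at an unadjusted p under 0.05, beside 20.5% of all genes. DESeq2 called 4 lower (4.76%, beside 5.55% of all genes), among them Rpl35a, Rpl39 and Rpl35. In edgeR the count was 15 without WT CMP 4, 3 without KO CMP 1 and 1 without KO CMP 2.

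In GMP of numbers 1-2, where 1 KO library met 2 WT libraries, 18 members were lower in KO and 1 was higher, against 9.0% of all genes lower and 11.0% higher (20.0% in all). The member median was -0.34 with 3 of 84 positive, beside 0.00 over all genes. Of the 43 large subunit main genes 12 fell, of the 31 small subunit main genes 4, and of the 3 stalk genes 0. The single KO library is assumed to vary like the other groups. KO GMP 1 also held a high Xist level, which WT GMP 1 and 2 did not, so genotype and Xist status cannot be told apart here. Without WT GMP 1 the count of lower members was 1, Rpl35a (-0.52, adjusted p = 0.0495), and without WT GMP 2 it was 23, so the count depends on which WT library it is set against.

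Rpl35a fell the most firmly, from 811 and 676 CPM in WT GMP 1 and 2 to 460 CPM in KO GMP 1 (-0.69 ± 0.15, adjusted p = 0.00606). KO GMP 3 and 4, at 743 and 794 CPM, lay within the WT GMP range of 676 to 836. Rpl23, a large subunit protein that can bind Mdm2, went from 1226 and 1016 to 720 CPM (-0.64 ± 0.14, adjusted p = 0.00752). Rpl11, which binds Mdm2 together with Rpl5, went from 1192 and 985 to 764 CPM (-0.51 ± 0.13, adjusted p = 0.0183). In the small subunit Rps28 went from 358 and 267 to 178 CPM (-0.81 ± 0.19, adjusted p = 0.0112). For each of these 4 genes KO GMP 1 was the lowest of the 7 GMP libraries.

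Others that fell in that comparison were the large subunit genes Rpl35, Rpl39, Rpl37a, Rpl15, Rpl36a, Rpl38, Rpl37, Rpl31 and Rpl22, the small subunit genes Rps23 and Rps24, and the paralogs Rpl22l1 and Rpl7l1. Their log2 changes ran from -0.91 (Rpl22l1) to -0.35 (Rpl15). The 10 small subunit genes linked to anaemia had a median of -0.43, and 8 large subunit genes linked to anaemia or p53 one of -0.37. The median of all members was -0.34, so the fall was not particular to these lists. They include Rps27 (0.45) and Rpl26 (0.32), whose values depend on how reads were divided with a copy. Rps19, the gene most often mutated in that anaemia, went from 1034 and 935 to 785 CPM. The summed level of 12 stem cell genes was 272 CPM in KO GMP 1 against 79.2 to 91.7 in the other GMP libraries. That of 11 megakaryocyte genes was 379 against 87.9 to 130, and that of 9 B cell genes 314 against 66.6 to 78.1. In numbers 1-2 all 12 stem cell genes and all 11 megakaryocyte genes had a positive log2 fold change. Of the 9 B cell genes 6 did, with a median of 0.15, so their sum does not describe the list as a whole. These sums and the ribosomal protein genes move in the same library, and the part of the listed genes in the result was not tested.

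The difference between number sets was also tested in GMP. The KO effect was lower in numbers 1-2 for 4 members and higher for 1 (10.6% of all genes passed, 4.36% lower and 6.27% higher). Among the 4 were Rpl7l1 (-0.55 ± 0.14, adjusted p = 0.0222), Rpl22l1 (-1.03 ± 0.29, 0.0382) and Rpl35a (-0.65 ± 0.19, 0.0475). Their count was 0 without WT GMP 1, WT GMP 3, KO GMP 3 or KO GMP 4, and 9 without WT GMP 2. The member median was -0.35, with 2 of 84 positive, beside 0.01 over all genes.

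**Figure D5:**
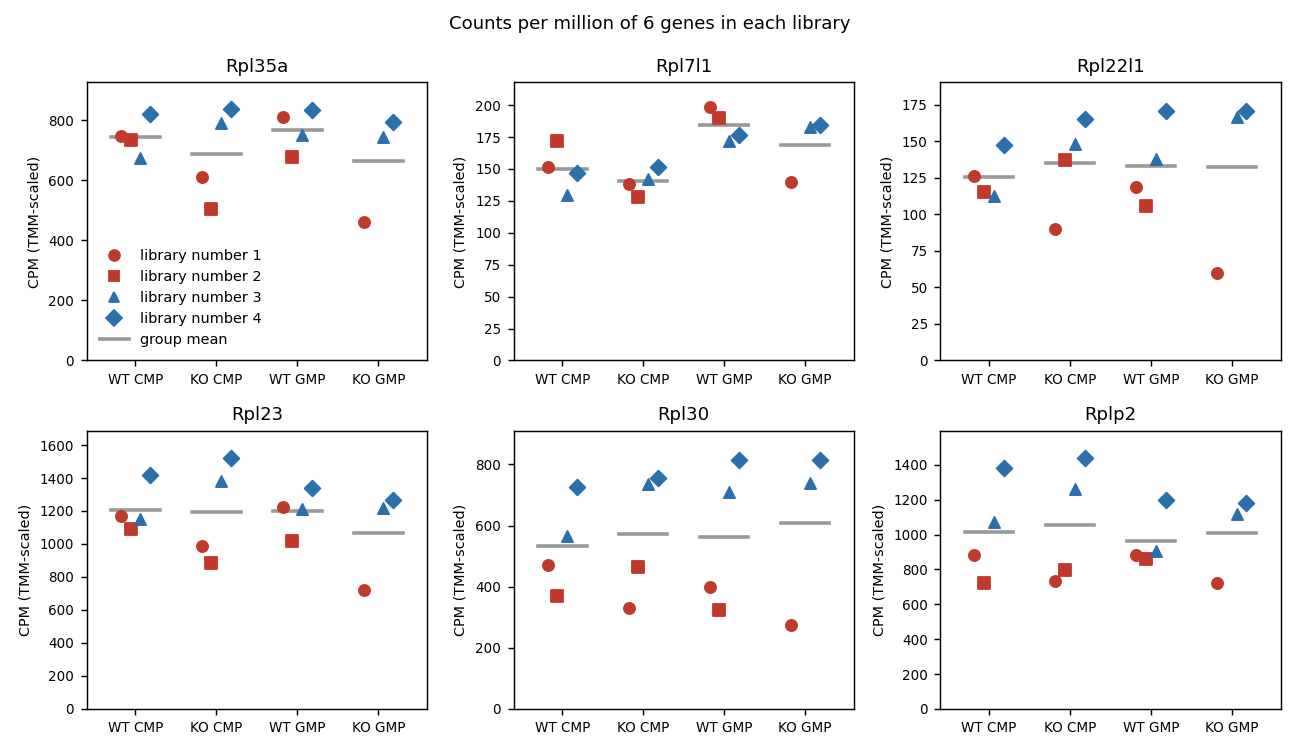
Level of 6 genes in each library in CPM, by group, with shape for library number, red for numbers 1-2, blue for numbers 3-4 and grey bars for group means; axes start at 0. Rpl35a, Rpl23 and Rpl22l1 are lowest in KO GMP 1 (460, 720 and 59.9 CPM), while Rpl30 is below 500 CPM in every library of numbers 1-2 and above 550 in every library of numbers 3-4.

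Shorter coding sequences, more than shorter transcripts, went with a larger fall in these comparisons. Across the 77 main genes, the log2 fold change of KO against WT in GMP numbers 1-2 and coding length had Pearson's r of 0.40 and Spearman's rho of 0.52, and in CMP numbers 1-2 r was 0.36 and rho 0.38. With transcript length r was 0.14 in GMP and 0.12 in CMP. For coding length in numbers 3-4 r was -0.07 in CMP and -0.10 in GMP. These are correlations across genes, which share their libraries and are not independent replicates, so they are given without a p.

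Number sets were also set against each other among the WT libraries. The division had been chosen because the WT libraries part this way. These tests therefore describe the division and are no support for it. In WT CMP 11 of 84 members were lower in numbers 1-2 than in 3-4 and 0 were higher. Over all genes 10.6% were lower and 12.3% higher (22.9% in all), so the count of lower members was near the share of all genes. The member median was -0.12, beside -0.01 over all genes. The stalk genes Rplp2 (885 and 724 CPM in numbers 1 and 2, 1072 and 1380 in 3 and 4, -0.61 ± 0.14, adjusted p = 0.0115) and Rplp1 (-0.33 ± 0.10, adjusted p = 0.0316) were among them, while Rplp0 did not pass (0.03 ± 0.12, adjusted p = 0.875). Others were the paralog Rps4y2 (-0.89 ± 0.21, adjusted p = 0.00989), the large subunit genes Rpl30 (-0.62), Rpl36 (-0.46), Rpl28 (-0.42), Rpl14 (-0.41) and Rpl8 (-0.34), and the small subunit genes Rps9 (-0.41) and Rps13 (-0.40). The count was 0 without WT CMP 4, 1 without WT CMP 2 and 27 without WT CMP 3. In DESeq2 19 were lower (22.6%, beside 13.1% of all genes) and 1, Rpl7l1, was higher (13.8% of all genes).

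In WT GMP 6 of 84 members were lower in numbers 1-2 and 0 were higher. Over all genes 5.45% were lower and 3.16% higher (8.61% in all), so the count of lower members was again near the share of all genes. The member median was -0.08, beside -0.01 over all genes. Rpl30, an RNA-binding protein of the large subunit, measured 398 and 323 CPM in WT GMP 1 and 2 and 710 and 813 CPM in 3 and 4 (-1.08 ± 0.17, adjusted p = 0.00306). With the counts of its copy added the change was -0.67 (adjusted p = 0.00526). Rps29 measured 431 and 343 CPM against 568 and 869 CPM (-0.89 ± 0.20, adjusted p = 0.0192). Rps23, a protein of the decoding centre, was at -0.51 ± 0.12 (adjusted p = 0.0259), Rpl14 at -0.42 ± 0.11 (0.0355) and Rpl36 at -0.47 ± 0.13 (0.0486). The sixth was Rpl3l. Over all 15 libraries Rpl30 did not overlap between the sets: it measured 274 to 470 CPM in numbers 1-2 and 566 to 816 CPM in numbers 3-4. In DESeq2 13 members were lower (15.5%, beside 7.88% of all genes) and 0 higher (5.62% of all genes); at an unadjusted p under 0.05 edgeR had 26 members (31%), beside 25.4% of all genes. WT GMP 2 and WT GMP 4 each carried much of it, with 2 members lower without either.

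The paralogs spanned the range from below the level of most main genes to none. Rpl36al, a near copy of Rpl36a with 87.9% of coding bases alike, measured 210 to 409 CPM over the libraries, against 480 to 872 CPM for Rpl36a. Rpl22l1 (65.9% alike to Rpl22) measured 59.9 to 171 CPM against 490 to 836 CPM for Rpl22. Rpl7l1 (50.1% alike to Rpl7) measured 128 to 198 CPM against 1482 to 2143 CPM for Rpl7. Rps4y2, annotated by GENCODE as a transcribed processed pseudogene on chromosome 6 (148354656 to 148355598, plus strand) under the name Rps4l, measured 5.58 to 17.0 CPM. Per kilobase the means were 609 (Rpl36al), 250 (Rpl22l1), 122 (Rpl7l1) and 15.3 (Rps4y2) CPM, below those of Rpl36a, Rpl22, Rpl7 and Rps4x.

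Rpl22l1 fell in KO GMP 1 beside Rpl22. It measured 119 and 106 CPM in WT GMP 1 and 2, 59.9 in KO GMP 1 and 166 and 171 in KO GMP 3 and 4, and its change in numbers 1-2 was -0.91 ± 0.23 (adjusted p = 0.0148). Rpl22 went from 723 and 610 to 490 CPM (-0.44 ± 0.14, adjusted p = 0.0479). Across the 15 libraries, the log2 levels of Rpl22l1 and Rpl22 had r of 0.86, those of Rpl36al and Rpl36a 0.75, Rpl39l and Rpl39 0.62, Rpl7l1 and Rpl7 0.56, Rpl3l and Rpl3 0.44, and Rps4y2 and Rps4x 0.14. These points share library and depth, and r is given as a description.

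Paralogs known from testis or muscle were at the edge of detection. Rpl10l, an autosomal stand-in for X-linked Rpl10 in male germ cells, had 0 counts in all 15 libraries. Rpl39l, the germ cell form of Rpl39 at the peptide exit tunnel, had 0 to 36 count units per library, where about 4 units stand for 1 sequenced fragment. The first 60 coding bases of Rpl39 and Rpl39l differ at 4 places, in capitals, and show that the pair can be told apart:
Rpl39: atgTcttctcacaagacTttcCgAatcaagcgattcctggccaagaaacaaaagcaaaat
Rpl39l: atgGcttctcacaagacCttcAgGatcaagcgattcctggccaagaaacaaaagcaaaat
Rpl39 itself measured 396 to 754 CPM. Rpl3l, the striated muscle form of Rpl3, had 0 units in WT GMP 1 and 2, 42 and 38 in WT GMP 3 and 4, and 54, 54 and 67 in KO GMP 1, 3 and 4. In CMP it had 19 to 85 units in WT and 38 to 106 in KO. Its call as higher in KO GMP of numbers 1-2 (adjusted p = 0.000685) rests on 13.5 fragments in 1 library: at 0.674 CPM it was at least 3.24-fold higher than WT GMP 1 and at least 3.97-fold higher than WT GMP 2, each taken at a floor of 3 fragments per library. The same zeros make it lower in WT GMP 1-2 than 3-4 (adjusted p = 0.00294).

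Other genes of the translation machinery and of ribosome assembly were counted beside the members. Of 36 ribosome biogenesis genes, 36 had a positive log2 fold change in KO CMP, with a median of 0.20, beside 0.01 over all genes, and 0 passed the threshold. Ncl, nucleolin, had the smallest p-value of them (0.34 ± 0.07, adjusted p = 0.192). Other lists also lay mostly on that side there. Positive were 70 of 76 mitochondrial ribosomal protein genes (median 0.15), 70 of 83 oxidative phosphorylation genes (0.11) and 17 of 19 initiation factor genes (0.14). Of the members 42 of 84 were. In CMP of numbers 1-2, where the ribosomal protein median was -0.18, 7 biogenesis genes rose and 0 fell, with a median of 0.13, beside 8.23% of all genes that rose and 10.2% that fell. The smallest p-values were those of Mybbp1a (0.28), Ddx21 (0.31), Polr1b (0.34) and Tcof1 (0.29). Of 18 genes for import and assembly of ribosomal proteins 5 rose and 0 fell there, among them Tsr2, the escort of Rps26 (0.33 ± 0.09, adjusted p = 0.0205), Heatr3, which serves Rpl5 import (0.24 ± 0.07, 0.0258), Ipo5 (0.27) and Grwd1 (0.26). In GMP of numbers 1-2, where 11.0% of all genes rose and 9.0% fell, list counts were near these shares: 3 biogenesis genes rose and 0 fell, led by Mybbp1a (0.54 ± 0.07, adjusted p = 0.000342), and of the import and assembly genes 2 fell, Tsr2 (-0.81 ± 0.11, adjusted p = 0.000342) and Sbds (-0.31 ± 0.10, 0.0445).

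Of 22 other translation genes with a terminal pyrimidine tract, such as Eef1a1 and Tpt1, 1 rose and 1 fell in KO CMP of numbers 1-2 (median -0.04), and 1 fell in KO GMP of numbers 1-2 (median -0.01, beside -0.34 for the ribosomal proteins). Between WT GMP and WT CMP, where 11.3% of all genes rose and 14.2% fell, 21 of 76 mitochondrial ribosomal protein genes rose and 1 fell, with a median of 0.24, while of the cytosolic members 1 of 84 rose. Of 83 genes of oxidative phosphorylation 14 rose and 1 fell (median 0.27), and of 19 initiation factor genes 5 rose and 0 fell (median 0.18), among them Eif3b (0.22), Eif2s2 (0.27), Eif2s1 (0.22) and Eif4e (0.26). Between KO GMP and KO CMP, where 10.7% of all genes rose and 10.5% fell, 2 mitochondrial ribosomal protein genes rose and 2 fell (median 0.08). There 3 oxidative phosphorylation genes rose and 0 fell (median 0.15), and 1 initiation factor gene rose and 0 fell (median 0.12). In the WT step, of 19 regulators of these genes 1 rose and 2 fell, beside 11.3% and 14.2% of all genes. Among them Mycn fell (-5.56 ± 0.55, adjusted p = 8.49e-05) and Pdcd4, an inhibitor of Eif4a, rose (0.55 ± 0.12, adjusted p = 0.00566). In KO GMP of numbers 1-2, 10 oxidative phosphorylation genes fell and 1 rose (median -0.21), and 6 mitochondrial ribosomal protein genes fell and 0 rose (median -0.11), both falls near the 9.0% of all genes.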

How the data were processed

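RNA-seq was done on 15 libraries of sorted bone marrow progenitors with a SMARTER mRNA-Seq kit, per the labels' protocols. Reads were aligned with HISAT to mm10, per the submitters' processing notes; the sources used here name no versions and no counting tool. The deposited values are expected counts per gene symbol, written as whole numbers. Of 40915 values between 1 and 40, 38.0% were multiples of 4, so 1 fragment was taken as about 4 units; library totals were 61.3 to 120.3 M units, or 15.3 to 30.1 M fragments. Tests on these units can treat counting error as smaller than it is. No library pair was identical (0). How reads matching several genes were assigned is not given, which bears on members with copies. In all, 25 symbols had been turned into dates.

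The members and lists were chosen with earlier results of these data known. Levels are TMM-scaled CPM. Tests used edgeR's quasi-likelihood F-test (edgeR 4.0.16, limma 3.58.1, R 4.3.3) on all genes passing filterByExpr (15181 genes), with Benjamini-Hochberg adjustment over all of them and a threshold of 0.05. A 4-group fit had 11 residual degrees of freedom, and a fit of group by number set (numbers 1-2, 3-4) had 7. Alternatives were other scaling factors, no filter, DESeq2 1.42.0, values divided by 4, number as a block or number set as a covariate, each library left out, and, added after seeing the data, copies added to the main gene and leaving out the 3 KO libraries of numbers 1-2. Scripts were tested on simulated data.

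Library numbers were treated as a possible pairing of the libraries, and single numbers entered only as a block in an alternative fit. Deviations from the group means correlated within every shared number of the groups compared. Pearson's r was 0.20 to 0.54 between KO and WT CMP and 0.24 to 0.40 between KO and WT GMP. It was 0.26 to 0.41 between WT CMP and WT GMP, and 0.45 to 0.54 between KO CMP and KO GMP. Between KO GMP and WT CMP, which are not compared, it ran from -0.19 to 0.12. Correlations between libraries of different number were not computed, so these values cannot tell pairing from a split that the number sets share.

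Copies were found with blastn 2.17.0+ against GENCODE M21 on GRCm38, and starts came from RefSeq (64 of 85 members matched). Genes named were paralogs and their main genes, stalk genes, the 5 highest and lowest levels, calls by smallest p (up to 12 a direction, or the first 3 a direction where none passed), and up to 4 genes of each other list; further calls are listed by name alone. KO GMP 2 is not used here. Counts and medians cover all tested members, but some members and 1 pair of sequences are not reported here.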

Additional observations from a re-analysis of the deposited data

Results flagged for a closer look

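Within groups of 4 libraries, 8 values stood apart by Dixon's test, 7 of them given here, among 138 gene and group combinations; chance would flag about 6.9 of them. Rps27 did so in 3 groups, each time in the library numbered 1: 507 CPM in KO CMP 1 (others 9.56 to 16.1), 523 in WT CMP 1 (8.16 to 15.5) and 640 in WT GMP 1 (5.87 to 11.1). Its coding twin Gm9846 was low in the same libraries. Rpl9 measured 1565 CPM in WT CMP 4 (others 1176 to 1235). Rplp2 measured 1196 CPM in WT GMP 4 (857 to 907), and Rpl27 818.5 CPM in WT GMP 2 (995 to 1029). Rpl26, at its low deposited level, measured 1.37 CPM in KO CMP 3 (0.683 to 0.790).

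The KO effect in GMP differed between numbers 1-2 and 3-4 for 5 members by the interaction term in edgeR. Rpl7l1 differed by -0.55 (log2, adjusted p = 0.0222), Rpl22l1 by -1.03 (0.0382) and Rpl35a by -0.65 (0.0475). Rpl3l differed by 8.08 (0.00702), a fitted value set by zero counts in WT GMP 1 and 2 that bounds nothing. The numbers 1-2 hold a single KO GMP library.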

How the results depend on the processing

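KO against WT in CMP and GMP, and their difference, kept 0 members past the threshold under every alternative run, each left-out library included. With library number as a replicate block, 2 members were higher in WT GMP than in WT CMP and 1 was lower in KO GMP than in KO CMP; the block changed no other call and was not fitted for the number sets. The WT GMP count was 0 with no filter and 2 with DESeq2, with number set as a covariate and without the 3 KO libraries of numbers 1-2. DESeq2 gave 7 lower members in CMP 1-2, 30 in GMP 1-2, 4 and 16 for the differences between sets in CMP and GMP, 19 lower and 1 higher for the WT CMP sets and 13 lower for the WT GMP sets. With no filter these were 7 (CMP 1-2), 3 and 8 (differences) and 10 (WT GMP sets), and RLE factors gave 1 in CMP 1-2.

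Leaving out 1 library gave ranges of 0 to 1 higher (GMP against CMP, WT and KO), 0 to 10 lower (CMP 1-2), 1 to 23 lower (GMP 1-2), 0 to 15 and 0 to 9 lower (differences, CMP and GMP), 0 to 1 higher and 0 to 27 lower (WT CMP sets) and 2 to 5 lower (WT GMP sets). KO GMP 1 could not be left out of GMP 1-2.

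With copies added, Rpl34 turned to -0.029 in CMP and -0.045 in GMP, and Rpl26 to -0.148 in GMP and 0.042 in the difference between cell types. Without the 3 KO libraries, Rps7 turned to 0.002 and Rpl35a to 0.12 in CMP, and Rpl26 to 0.03 in that difference. Rps4y2, in the CMP difference between sets, turned to -0.014 (TMM without members), -0.012 (no filter) and -0.001 (values divided by 4). None of these was past the threshold. With single libraries left out, values ran from -0.212 to 0.036 for Rps7 and -0.232 to 0.005 for Rpl35a in CMP, -0.269 to 0.040 for Rps4y2 in CMP 3-4, -0.185 to 0.002 for Rpl27 in GMP 3-4, and, in the CMP difference, -0.133 to 0.864 for Rpl3l, -0.161 to 0.175 for Rpl27 and -0.378 to 0.309 for Rps4y2. Without the 50 largest other genes the mean shares were 11.9% (KO GMP), 13.0% (WT CMP) and 12.5% (WT GMP). The cause of these changes was not tested. Rpl39l, Rpl3l and Rpl26 are limited by depth.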
